A study of Mus musculus with 6 samples.

Results

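The genes described here are 9 that bone marrow stromal cells use to hold blood stem and progenitor cells in place or that define those stromal cells: Cxcl12, Kitl, Angpt1, Il7, Vcam1, Lepr, Foxc1, Ebf1 and Ebf3. They were chosen by name, with earlier results of these data known, and are 9 of the 54532 genes in the deposited tables. All 9 passed the filter on low counts and are among the 14624 genes tested. Primary bone marrow mesenchymal stem cells (BMSCs) of wild type mice, a plastic-adherent population with the capacity to become bone-forming cells, were kept for 7 days in osteogenic medium. This medium held ascorbic acid at 50 μg/mL, β-glycerophosphate at 10 mM and, by the labels, dexamethasone at 100 nM, for which the methods of the study state a lower concentration. RNA of 3 control cultures (Con), which received this medium without added nickel, and of 3 cultures that also received 0.1 μM nickel ions (Ni) was sequenced. The labels call the 3 cultures of a group independent but do not say whether they came from separate animals. The comparison of Ni with Con asks how a low dose of nickel alters gene expression while BMSCs become osteoblasts.

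In the marrow, reticular stromal cells that carry the leptin receptor secrete the chemokine CXCL12, which retains stem cells and B cell progenitors through CXCR4, and stem cell factor, the product of Kitl, which keeps stem cells alive through the receptor KIT. The same cells make angiopoietin-1 and interleukin-7 and display the adhesion molecule VCAM1. The transcription factors FOXC1, EBF1 and EBF3 are known to maintain these cells and their output of CXCL12 and stem cell factor.

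The libraries held from 16101033 to 18642504 counts. Control replicate 3 stood apart from its group: its distance over all tested genes (1 minus Pearson's r of log2 CPM, counts scaled to library size after TMM normalization) was 0.0209 and 0.0232 to the other controls and from 0.0119 to 0.0140 to the Ni libraries. The values of the 9 genes and the counts for each gene list are therefore also given without it. This library was singled out after the data were seen, for its likeness to the Ni libraries. Leaving it out can by itself widen the difference between the groups and lower the p-values. Adjusted p values given without control replicate 3 therefore show how far a result depends on it, and are not separate evidence of a difference. Of 12 general stromal markers, 11 passed the filter on low counts, which cannot by itself establish the cell type. Among them Cdh11 stood at 447 ± 26.0 CPM in Con and Pdgfra at 66.1 ± 4.83 CPM (SD, n = 3). The 12 summed to between 953 and 1268 CPM in Con and between 1189 and 1381 CPM in Ni. Thy1, a surface marker often used for such cells, was low at 1.21 ± 0.298 CPM, and Twist2, at 0.319 ± 0.167 CPM, did not pass the filter. All 16 macrophage markers listed passed the same filter and summed to between 27902 and 32657 CPM. Among them, the lysozyme gene Lyz2 stood at 11680.4 ± 2980.4 CPM in Con and 11861 ± 941 CPM in Ni. These are bulk cultures, so that fewer cells of a type and less RNA per cell cannot be told apart.

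The RefSeq sequence around the start of transcription (250 bases before to 50 after, GRCm38.p6) was at hand for 6 of the 9 genes. Those printed, 5′ to 3′ on the gene's strand, belong to the most abundant ligand genes, Cxcl12 and Kitl, and to Ebf3, the transcription factor gene whose Ni libraries all lay below Con. Capitals mark GC boxes, written GGGCGG and read by factors of the Sp family. They also mark a TATA box, searched as TATAAA, and the core of the early B cell factor motif, searched as CCCNNGGG, with each motif looked for on both strands. The windows are chr6:117168285-117168584 for Cxcl12 (plus strand), chr10:100015571-100015870 for Kitl (plus strand) and chr7:137314396-137314695 for Ebf3 (minus strand).
Cxcl12: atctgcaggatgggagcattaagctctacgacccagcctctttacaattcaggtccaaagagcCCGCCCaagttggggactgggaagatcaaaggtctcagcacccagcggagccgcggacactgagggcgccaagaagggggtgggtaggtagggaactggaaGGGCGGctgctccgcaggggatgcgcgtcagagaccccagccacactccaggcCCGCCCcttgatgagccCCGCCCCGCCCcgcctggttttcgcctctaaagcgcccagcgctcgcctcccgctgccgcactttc
Kitl: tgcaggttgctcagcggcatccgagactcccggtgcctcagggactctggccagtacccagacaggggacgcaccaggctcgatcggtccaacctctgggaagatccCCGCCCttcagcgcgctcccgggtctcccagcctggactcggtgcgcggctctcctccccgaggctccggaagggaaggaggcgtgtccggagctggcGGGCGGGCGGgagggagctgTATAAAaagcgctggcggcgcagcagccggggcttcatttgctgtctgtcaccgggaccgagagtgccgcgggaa
Ebf3: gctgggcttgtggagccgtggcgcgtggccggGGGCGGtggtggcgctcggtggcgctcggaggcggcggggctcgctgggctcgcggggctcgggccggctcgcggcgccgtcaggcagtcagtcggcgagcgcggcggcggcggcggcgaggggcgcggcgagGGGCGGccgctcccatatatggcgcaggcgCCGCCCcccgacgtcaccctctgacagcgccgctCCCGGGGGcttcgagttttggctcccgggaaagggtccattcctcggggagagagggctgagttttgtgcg
GC boxes numbered 5 in the Cxcl12 window, 3 in that of Kitl and 3 in that of Ebf3. At least 1 GC box was present in 35.9% of the 32544 promoter windows of the table. The TATA box of Kitl began at position -25 relative to the start, and 13.6% of all windows held such a box. The early B cell factor core occurred in the Ebf3 window alone among the 8 windows of these genes, against 13.7% of all windows. Such matches describe the letters only.

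Measured per gene length as FPKM (reads scaled to gene length and library size), the 9 genes spanned more than 2 orders of magnitude, and CXCL12 transcripts exceeded all others in each of the 6 libraries. Cxcl12 averaged 216 FPKM over the libraries and ranked between 135 and 246 among all genes of a library. Kitl followed with 17.4 FPKM and Vcam1 with 14.3 FPKM. Angpt1 and Foxc1 stood level at 7.05 and 7.03 FPKM. Ebf1 averaged 4.09 FPKM, Lepr 2.44, Ebf3 1.88 and Il7 1.31 FPKM.

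Not every step of this order exceeded the spread. The ranges over the 6 libraries overlapped for Kitl and Vcam1, for Lepr and Ebf3 and for Ebf3 and Il7, although within a library the first of each pair was the higher in 6 of 6. Angpt1 and Foxc1 could not be ordered, since Angpt1 was the higher in 3 of 6 libraries and their log2 FPKM differed by -0.01 ± 0.32 (SD, n = 6). The ratio of Cxcl12 to Kitl was 3.72 ± 0.02 in Con on the log2 FPKM scale and 3.54 ± 0.31 in Ni (SD, n = 3 each). Kitl stood at 13.1 FPKM in Ni replicate 2, beside 17.2 and 16.8 FPKM in the other Ni libraries. Whether the spread of this ratio differs between the groups was not tested. Cxcl12 alone made up between 78.1% and 84.0% of the summed CPM of the 9 genes.

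**Figure D1:**
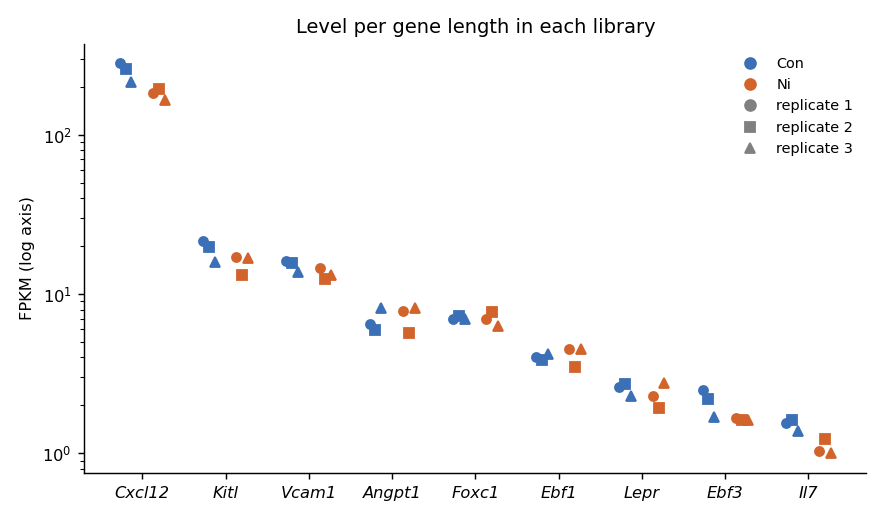
Level of each gene per gene length (FPKM, log axis) in the 3 Con and 3 Ni libraries, one point per library, with genes ordered by their mean. Cxcl12 lies between 165 and 280.0 FPKM in all 6 libraries, and no library of another gene exceeds the 21.6 FPKM of Kitl in control replicate 1.

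Of the 9 genes, 3, namely Cxcl12, Il7 and Ebf3, were lower in every Ni library than in every control library, and no gene of the 9 was higher throughout. None of the 9 passed an adjusted p of 0.05 by the quasi-likelihood test of edgeR (Benjamini-Hochberg, over all 14624 genes). The share of all tested genes passing was 0.0%, with a smallest adjusted p of 0.185; DESeq2 called 261 genes. At an unadjusted p under 0.05 edgeR had 1963 genes, of which 5.83% of those tested were lower in Ni and 7.59% higher. Of the 9, 3 were lower at that level and 0 higher. The libraries of the groups did not overlap, with Ni lower, for 6.71% of all tested genes and for the same 3 of the 9, while 7.97% of tested genes did so with Ni higher and 0 of the 9. The log2 fold change (Ni minus Con) was negative for 7 and positive for 2, with a median of -0.18 beside -0.01 for all tested genes, of which 51.9% were negative. With 3 libraries against 3, an exact permutation test cannot go below p = 0.1.

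**Figure D2:**
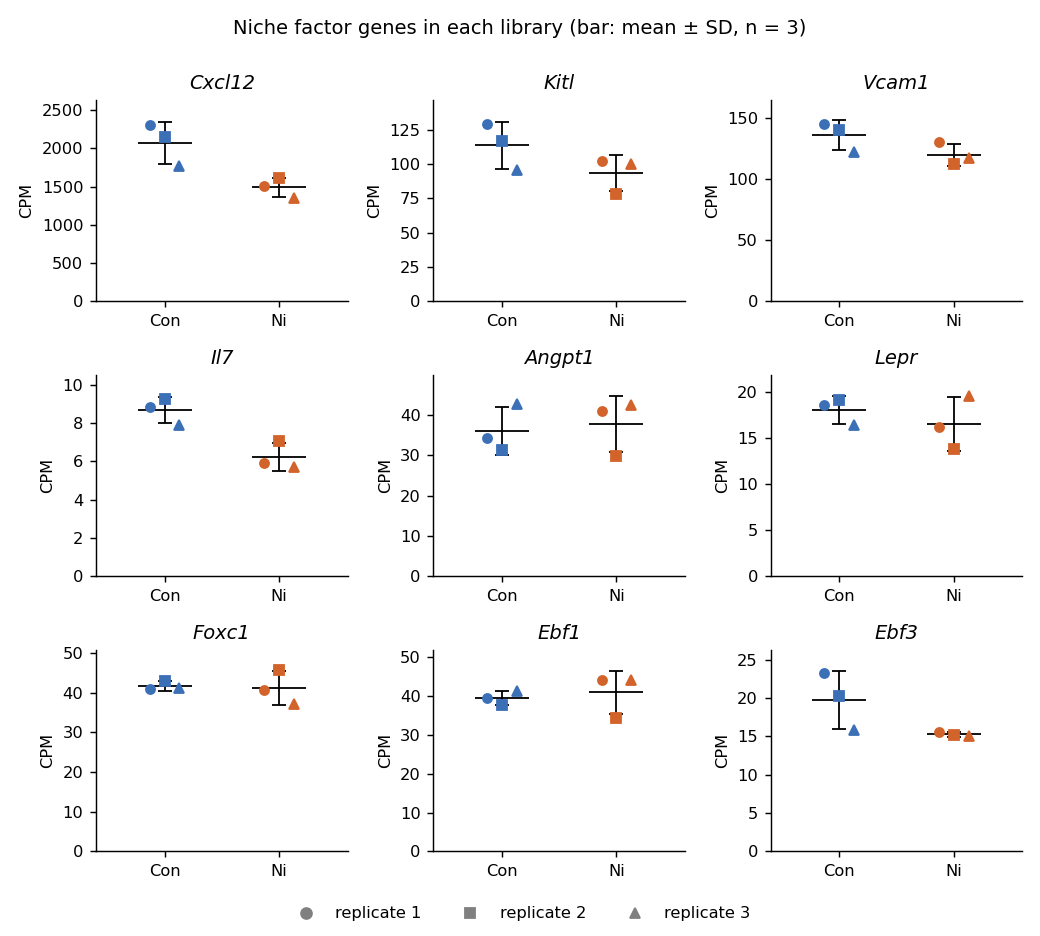
CPM of each gene in the 3 Con and 3 Ni libraries, with marker shape giving the replicate number and the bar the mean ± SD; each axis starts at 0. The Ni libraries lie below all controls for Cxcl12, Il7 and Ebf3, and overlap the controls for the other genes.

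Among the ligands, Cxcl12 (ENSMUSG00000061353, chr6:117168535-117181367, GRCm38, plus strand) stood at 2304, 2143 and 1767 CPM in the controls and at 1508, 1609 and 1355 CPM in Ni. The lowest control therefore exceeded the highest Ni library. The means were 2071 ± 276 CPM in Con and 1491 ± 128 CPM in Ni (SD, n = 3). The log2 fold change was -0.47 (SE 0.14, 95% interval -0.78 to -0.17), with an edgeR adjusted p of 0.292. It rests on large counts, from 24537 to 42165 reads a library. Without control replicate 3 it was -0.57, with an edgeR adjusted p of 0.00168. When any other library was left out, the edgeR adjusted p of Cxcl12 lay between 0.221 and 0.83.

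Kitl (ENSMUSG00000019966, chr10:100015630-100100416, plus strand) measured 129, 117 and 95.3 CPM in Con and 102, 78.5 and 99.9 CPM in Ni. The groups overlapped, since control replicate 3 lay below 2 of the Ni libraries. This gave a log2 fold change of -0.28 (SE 0.14, 95% interval -0.59 to 0.02), with an edgeR adjusted p of 0.400. Without control replicate 3 it was -0.39, with an edgeR adjusted p of 0.0403, so that the call for Kitl depends on that library. Ni replicate 2 was the lowest for Kitl, and without it the fold change was -0.17.

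Il7 (ENSMUSG00000040329, chr3:7569994-7613760, minus strand), the growth factor of B cell progenitors, was the least abundant of the 9 at 8.85, 9.26 and 7.92 CPM in Con against 5.92, 7.08 and 5.69 CPM in Ni. Every Ni library lay below every control. Its log2 fold change of -0.48 (SE 0.17, 95% interval -0.87 to -0.09) had an edgeR adjusted p of 0.334. The counts behind it were small, from 103 to 162 a library. Without control replicate 3 the value was -0.53, with an edgeR adjusted p of 0.0832.

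Angpt1 (ENSMUSG00000022309, chr15:42424723-42676977, minus strand), whose product signals through the receptor TEK, showed no separation. It measured 34.2, 31.4 and 42.8 CPM in Con and 40.9, 29.9 and 42.6 CPM in Ni, so that the highest and the lowest library were a control and a Ni library. Its log2 fold change was 0.07 (SE 0.16, 95% interval -0.29 to 0.43), with an edgeR adjusted p of 0.892. An opposite-strand gene, Gm17473, overlaps 14.2% of the exon bases of Angpt1. Opposite-strand genes also overlap 3.85% of the exon bases of Ebf3, 1.85% of those of Il7 and 0.688% of those of Vcam1. Whether reads were counted by strand is not given in the sources used here.

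Vcam1 (ENSMUSG00000027962, chr3:116109949-116129688, minus strand), the adhesion molecule bound by the integrin of ITGA4 and ITGB1, was at 145, 140.4 and 122 CPM in Con and at 129.9, 112 and 117 CPM in Ni. All 3 Ni libraries lay below the control mean of 136 CPM, but Ni replicate 1 exceeded control replicate 3. A log2 fold change of -0.18 (SE 0.10, 95% interval -0.42 to 0.05) had an edgeR adjusted p of 0.458. Without control replicate 3 these were -0.25 and 0.0967.

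Lepr (ENSMUSG00000057722, chr4:101717404-101815352, plus strand), the receptor that marks these stromal cells in the marrow, measured 18.6, 19.2 and 16.4 CPM in Con and 16.2, 13.8 and 19.6 CPM in Ni. The Ni libraries held both the highest and the lowest value. Between the means lay a log2 fold change of -0.13 (SE 0.15, 95% interval -0.47 to 0.21), with an edgeR adjusted p of 0.752. It was -0.01 without Ni replicate 2 and -0.27 without Ni replicate 3. Leptin itself, Lep, had 0 to 2 counts a library and was not tested.

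Of the 3 transcription factor genes, Ebf3 was the one whose groups did not overlap. Ebf3 (ENSMUSG00000010476, chr7:137193673-137314445, minus strand) stood at 23.2, 20.2 and 15.8 CPM in Con and at 15.6, 15.2 and 15.0 CPM in Ni. Control replicate 3 was thus only slightly above the Ni libraries, and control replicates 1 and 2 were clearly higher. The log2 fold change was -0.37 (SE 0.15, 95% interval -0.71 to -0.04) with an edgeR adjusted p of 0.350, and -0.50 without control replicate 3, with an edgeR adjusted p of 0.0208. Without control replicate 1 it was -0.24. Its promoter window, printed above, was the 1 of 8 windows at hand with the early B cell factor core, which 13.7% of all promoter windows held.

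Ebf1 (ENSMUSG00000057098, chr11:44617317-45008091, plus strand), the close relative of Ebf3, measured 39.6, 37.7 and 41.3 CPM in Con and 44.1, 34.4 and 44.2 CPM in Ni. The controls lay inside the range of the Ni libraries. Its log2 fold change was 0.05 (SE 0.12, 95% interval -0.22 to 0.31), with an edgeR adjusted p of 0.892. Foxc1 (ENSMUSG00000050295, chr13:31806633-31812476, plus strand) was the steadiest of the 9, with a standard deviation of 0.0991 on the log2 CPM scale over the 6 libraries. It stood at 40.8, 43.0 and 41.1 CPM in Con and at 40.7, 45.7 and 37.1 CPM in Ni. For Foxc1 the log2 fold change was -0.02 (SE 0.11, 95% interval -0.25 to 0.22), with an edgeR adjusted p of 0.963.

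**Figure D3:**
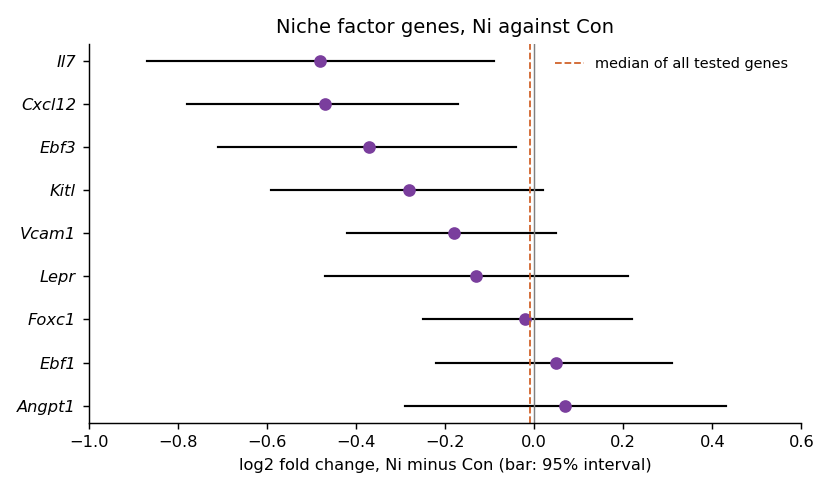
Log2 fold change (Ni minus Con) of each gene with its 95% interval from edgeR, beside the median of all tested genes (dashed line). The intervals of Cxcl12, Il7 and Ebf3 lie below 0, from -0.87 at the lowest to -0.04 at the highest bound, and those of the other 6 genes include 0.

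Single libraries weighed on these values. Ni replicate 2 was the lowest of the 6 libraries for Kitl, Lepr, Vcam1, Angpt1 and Ebf1 and the highest for Foxc1, and Ni replicate 3 was the lowest for Cxcl12, Il7, Foxc1 and Ebf3. Control replicate 1 was the highest for Cxcl12, Kitl, Vcam1 and Ebf3. The number of the 9 genes lower at an unadjusted p under 0.05 was 3 with all libraries and 5 without control replicate 3, where 12.2% of all tested genes were lower at that level. It was 1, Cxcl12, without control replicate 1, control replicate 2, Ni replicate 1 or Ni replicate 3. Those settings had between 1.79% and 2.36% of all tested genes lower. Without Ni replicate 2 it was 2, Cxcl12 and Il7, beside 7.98% of all tested genes. For the genes near 0, leaving out control replicate 3 gave log2 fold changes of -0.19 for Lepr, 0.21 for Angpt1, -0.02 for Foxc1 and 0.09 for Ebf1. At an adjusted p of 0.05, 3 of the 9 passed without control replicate 3, each lower in Ni, beside 6.49% of all tested genes, and 0 passed when any other library was left out. Since control replicate 3 was the control most like the Ni libraries, the calls made without it are not separate evidence of a difference.

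Next came the receptors and partners of these factors. Of 12 listed, 11 were tested, 6 with a positive and 5 with a negative log2 fold change (median 0.10), and 1 was higher at an unadjusted p under 0.05. That gene was Ackr3, the scavenging receptor that takes up CXCL12, at 5.46, 5.42 and 10.7 CPM in Con and 15.0, 10.2 and 13.1 CPM in Ni. Control replicate 3 lay within the Ni range. The log2 fold change of Ackr3 was 0.83 (SE 0.28), with an edgeR adjusted p of 0.309, and 1.23 without control replicate 3, with an edgeR adjusted p of 0.00156. Cxcr4, the signalling receptor, averaged 44.7 ± 12.0 CPM in Con and 55.4 ± 5.94 CPM in Ni (SD, n = 3; edgeR adjusted p 0.467). In this list 0 genes were higher in every Ni library than in every control, and 1, Il2rg, was lower throughout. Among all tested genes these shares were 7.97% and 6.71%. Il2rg had a log2 fold change of -0.22 (edgeR adjusted p 0.377). Without control replicate 3, 4 genes of the list were higher at an adjusted p of 0.05 and 0 lower. Of all 15044 genes tested in that setting, 1307 were higher and 976 lower at that level.

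Within each library, the log2 CPM of Cxcl12 minus that of Ackr3 was 8.69, 8.60 and 7.35 in Con and 6.64, 7.29 and 6.68 in Ni. The same difference with Cxcr4 was 5.99, 5.76 and 4.92 in Con against 4.67, 5.05 and 4.53 in Ni. For Ackr3 the groups were apart by a narrow margin, while for Cxcr4 Ni replicate 2 lay above control replicate 3. Kit, at 9.46 ± 3.01 CPM in Con and 10.2 ± 1.67 CPM in Ni, and Itga4, at 84.5 ± 3.24 and 83.1 ± 12.7 CPM (SD, n = 3), had edgeR adjusted p values of 0.881 and 0.953.

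Other signals that stroma sends to blood cells had values in both directions: of 13 tested out of 16 listed, 7 had a positive and 6 a negative log2 fold change (median 0.06), and an unadjusted p under 0.05 was reached by 2 that were higher and 2 that were lower. Clec11a, an osteogenic growth factor made by the same stromal cells, measured 58.8, 58.8 and 90.7 CPM in Con and 127, 103 and 122 CPM in Ni, with no overlap. Its log2 fold change was 0.76 (SE 0.17, edgeR adjusted p 0.241), and 1.00 without control replicate 3 (edgeR adjusted p 0.000161). Spp1, the osteopontin gene, had a log2 fold change of 0.63 (edgeR adjusted p 0.367), which was 1.06 without control replicate 3 (edgeR adjusted p 0.000167) and 0.44 without control replicate 2. The groups overlapped for Spp1, with control replicate 3 at 9015 CPM and Ni replicate 2 at 7997 CPM. Bmp4 was at 59.3 ± 3.75 CPM in Con and 46.5 ± 3.46 CPM in Ni (SD, n = 3), with no overlap. Its log2 fold change was -0.35 (edgeR adjusted p 0.289), and -0.40 without control replicate 3 (edgeR adjusted p 0.0213). The Notch ligand gene Jag1, also with no overlap, had one of -0.33 (edgeR adjusted p 0.364), and -0.35 without that library (edgeR adjusted p 0.168). In this list, 3 genes were lower in every Ni library than in every control and 1 was higher. Among all tested genes these shares were 6.71% and 7.97%. Leaving out control replicate 3 brought 3 higher and 2 lower genes of the list past an adjusted p of 0.05. Over all 15044 genes tested there, these numbers were 1307 and 976.

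Of 20 genes known from reticular stromal cells, 19 were tested, 12 with a positive and 7 with a negative log2 fold change (median 0.07), and an unadjusted p under 0.05 was reached by 2 that were lower and 2 that were higher. Hp, which encodes haptoglobin, stood at 742, 737 and 615 CPM in Con and 465, 548 and 463 CPM in Ni. Its groups did not overlap, and the log2 fold change was -0.50 (SE 0.12, edgeR adjusted p 0.241), or -0.58 without control replicate 3 (edgeR adjusted p 0.00152). Lpl, the lipoprotein lipase gene, had a log2 fold change of -0.49 (edgeR adjusted p 0.367). The mesenchymal transcription factor genes Snai2 and Prrx1 had log2 fold changes of 0.40 and 0.36 (edgeR adjusted p 0.350 and 0.364). With control replicate 3 left out, 4 genes of the list were higher and 3 lower at an adjusted p of 0.05. Among all 15044 genes tested there, 1307 were higher and 976 lower.

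For leptin receptor signalling, all 12 genes listed were tested, 6 with a positive and 6 with a negative log2 fold change (median 0.01), and 0 passed an unadjusted p of 0.05. Those with the highest mean CPM, a measure that does not allow for gene length, were Ptpn1, a phosphatase that limits the signal, at 374 ± 99.3 CPM in Con and 273 ± 47.7 CPM in Ni, and Ptpn11, the SHP2 phosphatase gene, at 184 ± 10.9 and 197 ± 5.56 CPM (SD, n = 3). Their log2 fold changes were -0.46 and 0.10 (edgeR adjusted p 0.377 and 0.687). That of Ptpn1 was -0.65 without control replicate 3, with an edgeR adjusted p of 0.00425, the 1 call in this list. In that setting 976 of all 15044 genes tested were lower at an adjusted p of 0.05.

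Markers of cell types were set beside these values. All 14 osteoblast markers had a positive log2 fold change (median 1.13), each at an unadjusted p under 0.05 and 0 at an adjusted p of 0.05 in edgeR, and for 13 of them every Ni library lay above every control. Col1a1, the main collagen gene of bone, was at 4506, 5039 and 8536 CPM in Con and 14381, 11589.8 and 13577 CPM in Ni, a log2 fold change of 1.13 (SE 0.24, edgeR adjusted p 0.212) and 1.47 without control replicate 3 (edgeR adjusted p 4.01e-05). Smpd3, Col1a2 and Sp7, a transcription factor gene of osteoblasts, had log2 fold changes of 1.13, 0.97 and 0.88. The summed CPM of the 14 ran from 9129 to 17211 in Con and from 22011 to 29643 in Ni.

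Of the 11 general stromal markers tested out of 12 listed, 10 had a positive log2 fold change (median 0.40), and an unadjusted p under 0.05 was reached by 5, each higher in Ni. Fap, Ddr2 and Prrx2 had log2 fold changes of 0.78, 0.58 and 0.52. Of the 16 macrophage markers, 12 had a negative one (median -0.20), with 4 lower and 0 higher at that level. Those 4 were Itgam, Fcer1g, Tyrobp and Ptprc, with log2 fold changes of -0.40, -0.45, -0.45 and -0.36. The summed level of the macrophage list ran from 28082 to 32657 CPM in Con and from 27902 to 28513 CPM in Ni, and none of its genes was at 0. Without control replicate 3, the genes past an adjusted p of 0.05 were 11 osteoblast markers and 7 general stromal markers, all higher in Ni, and 6 macrophage markers lower and 1 higher. Over all 15044 genes tested in that setting, 1307 were higher and 976 lower. The part of these shifts in cell type markers in the values of Cxcl12, Il7 and Ebf3 was not tested.

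**Figure D4:**
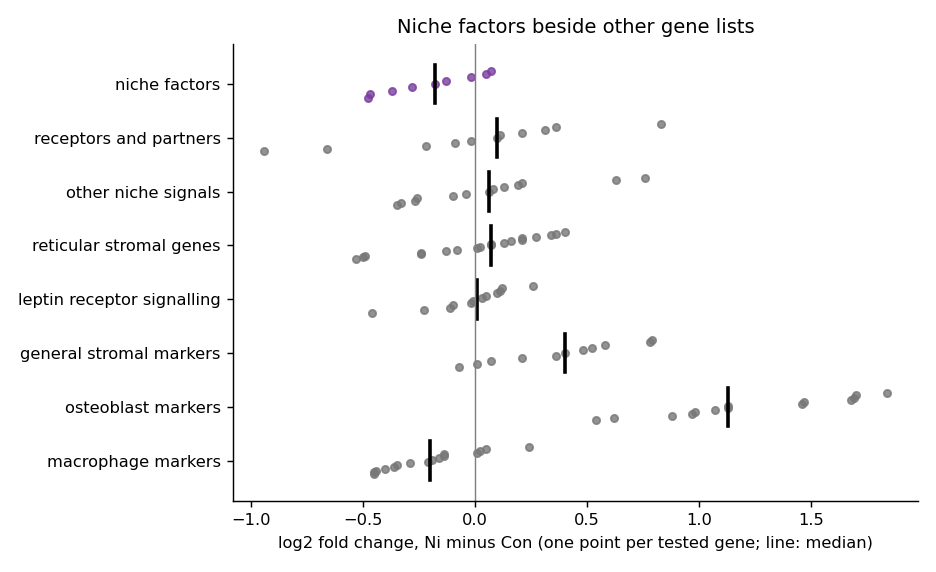
Log2 fold change (Ni minus Con) of every tested gene of the 9 niche factors and of 7 other lists, one point per gene, with the median of each list as a line. The niche factors have a median of -0.18, the osteoblast markers one of 1.13 with all 14 points above 0, and the general stromal markers one of 0.40.

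Set against the mean log2 CPM of the 11 general stromal markers of the same library, all 9 genes were lower in Ni on average, as were 88.5% of all tested genes, whose median on this scale was -0.41. The mean difference, Ni minus Con, was -0.87 for Cxcl12 and for Il7, -0.75 for Ebf3, -0.68 for Kitl, -0.58 for Vcam1, -0.53 for Lepr, -0.42 for Foxc1, -0.36 for Ebf1 and -0.33 for Angpt1. For Cxcl12 the relative level was 5.74, 5.61 and 4.83 in Con and 4.45, 4.75 and 4.38 in Ni. Every Ni library lay below every control for Cxcl12, Il7, Ebf3, Vcam1 and Angpt1, each with an exact two-sided permutation p of 0.1, the smallest possible here. On this scale 20.4% of all tested genes lay below every control. The stromal markers themselves moved in this ratio: relative to the control mean they stood at -0.19, -0.16 and 0.35 in the controls and at 0.49, 0.29 and 0.41 in Ni, so that control replicate 3 again sat with the Ni libraries.

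The genes whose log2 CPM followed Cxcl12 most closely over the 6 libraries, among 9478 genes with a mean of at least 10 CPM, were Trpv2 (Pearson's r 0.993), Mcoln2 (0.990) and Ikzf1 (0.989). Ikzf1, which encodes the transcription factor Ikaros of blood cells, was at 163 ± 29.9 CPM in Con and 114 ± 9.99 CPM in Ni (SD, n = 3). Those nearest to Kitl were Tmem128 (0.998), 1110059E24Rik (0.996) and Manea (0.995). All 6 libraries enter each of these values, and 473 genes exceeded an r of 0.9 with Cxcl12 and 329 with Kitl.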

How the data were processed

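The authors deposited raw counts of reads per gene for 6 libraries, made from mRNA with the NEBNext Ultra kit, and FPKM values. Each FPKM equals the count over the gene's length and a constant of its library (largest relative deviation 3.29e-07). The build GRCm38 is named in the submitters' processing notes; aligner, counting tool and strand setting are not given in the sources used here. After filterByExpr, 14624 of 54532 genes remained; their counts were scaled by TMM and tested without covariates with the quasi-likelihood test of edgeR 4.0.16 in R 4.3.3. Overlap between groups used log2 CPM with a prior count of 2. DESeq2 1.42.0, limma 3.58.1 on log2(FPKM + 1) and on log2(FPKM + 0.1), other scalings and filters, a replicate block and leaving out each library were the alternatives. Totals ran from 16101033 to 18642504 counts, and pairs within a group differed by more than sampling noise (chi-square over its degrees of freedom from 4.37 to 43.6). P-values measure the spread between the 3 cultures of a group.

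The members and lists were chosen with earlier results of these data known. The text names all 9 genes, up to 4 genes per list with an unadjusted p under 0.05, otherwise the 2 most abundant, and the 3 genes most like Cxcl12 and Kitl. Lyz2, Cdh11, Pdgfra, Thy1, Twist2, Cxcr4, Kit, Itga4, Il2rg, Lep, Cd79b, Cd22, Emcn and Egfl7 were added after their values were seen. Some marker genes are not reported here. Promoter windows are from RefSeq. Exon overlaps are from GENCODE M21, whose coordinates and exon lengths match the deposited ones for all 9 genes.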

Additional observations from a re-analysis of the deposited data

How the results depend on the processing

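Of 135 pairs of gene and alternative over the 9 genes and 15 alternatives, 124 kept direction and side of the adjusted p of 0.05, and 6 reversed. No gene passed in the main edgeR test, with the filter on low counts and no replicate block. In DESeq2 261 (212 higher) passed, and in edgeR with no filter on low counts 1027 (660 higher). With a library left out, from 0 to 2283 passed, 2283 without control replicate 3 and 13 without Ni replicate 2. At an unadjusted p under 0.05, 3057 genes passed with no filter and from 868 to 4125 with a library left out, against 1963. Of the 9 genes, 1 passed an adjusted p of 0.05 in DESeq2 (Cxcl12, -0.47, adjusted p 0.0276) and 1 with no filter (Cxcl12, -0.46, adjusted p 0.0101), and from 0 to 3 with a library left out. From 1 to 5 passed unadjusted. Over all alternatives the adjusted p ran from 0.00168 to 0.83 for Cxcl12, from 0.0832 to 0.83 for Il7 and from 0.0208 to 0.83 for Ebf3. Of the genes of the other lists, 15 passed in DESeq2, 29 with no filter and from 0 to 45 with a library left out, and from 22 to 60 unadjusted. The cause was not tested.

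Leaving out a library reversed values near 0: Angpt1 to -0.02 and -0.03 (range -0.03 to 0.21), Foxc1 to 0.01 and 0.05 (range -0.09 to 0.05), Ebf1 to -0.01 in each of 2 cases (range -0.01 to 0.16) and Camp to -0.04, -0.02 and -0.01 (range -0.04 to 0.28). Lepr ran from -0.27 to -0.01. The range was -0.57 to -0.39 for Cxcl12, -0.39 to -0.17 for Kitl, -0.58 to -0.42 for Il7 and -0.50 to -0.24 for Ebf3. From 7 to 9 genes kept their place in the order of levels. Against the median of the stromal markers Angpt1 was at -0.50. Removing a trend with gene length, chosen after seeing the data, gave -0.50 for Cxcl12, -0.49 for Il7 and -0.40 for Ebf3.

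A replicate block called 315 genes at an adjusted p of 0.05 and 16 genes of the other lists, and none of the 9, with 4 of them at an unadjusted p under 0.05. Deviations of same-numbered libraries correlated at 0.0104, 0.256 and 0.138, and those of differently numbered libraries at -0.219 to 0.065. With so few libraries these values do not settle whether the numbers pair the cultures. The main test had no block because the methods describe no pairing. At these depths Il7, with 103 to 162 counts a library, was the least precise of the 9.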

Other observations

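Lymphoid and granulocytic markers were mostly low, with exceptions. Of 12 B cell markers, the lineage that responds to interleukin-7, 3 were tested, all with a negative log2 fold change, and Igll1, Ms4a1 and Blk were at 0 in every library. Ighm, the immunoglobulin heavy chain gene, stood at 145, 176 and 51.5 CPM in Con and 54.2, 70.5 and 47.6 CPM in Ni, so that control replicate 3 lay within the Ni range (log2 fold change -1.11, edgeR adjusted p 0.371, and -1.48 with 0.000264 without that library). Cd79b was at 35.1, 42.2 and 13.7 CPM in Con and 18.8, 18.4 and 14.8 CPM in Ni, and Cd22 between 10.2 and 13.9 CPM in all libraries. Of 12 neutrophil and progenitor markers 3 were tested, with 0 at an unadjusted p under 0.05. The 2 with the highest mean CPM, Cd34 and Camp, averaged 4.93 and 1.08 CPM in Con, and S100a9, Ngp, Ltf and Retnlg were at 0.

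All 12 endothelial markers were tested, 5 with a positive and 7 with a negative log2 fold change, and they summed to between 60.2 and 85.8 CPM in Con and between 55.8 and 59.6 CPM in Ni. Pecam1 was the gene at an unadjusted p under 0.05, with a log2 fold change of -0.65 (edgeR adjusted p 0.347), and -0.89 without control replicate 3 (edgeR adjusted p 0.00118). In contrast, Emcn and Egfl7, at log2 fold changes of 0.58 and 0.50 (edgeR adjusted p 0.382 and 0.413), were higher in every Ni library than in every control. Both were low, averaging 2.13 and 2.18 CPM in Con and 3.18 and 3.1 CPM in Ni. Of all tested genes 7.97% were higher throughout, and 0 of the 12 endothelial markers were lower throughout. Of 8 adipocyte markers tested out of 12, 5 were positive and 3 negative, and Lipe, the hormone-sensitive lipase gene, was at 28.8, 31.4 and 25.5 CPM in Con and 21.4, 23.1 and 18.6 CPM in Ni (log2 fold change -0.44, edgeR adjusted p 0.289), below the controls in 3 of 3 Ni libraries. Lpl, which is also in the reticular list, was the other adipocyte gene at that level. Without control replicate 3, 2 of 10 adipocyte genes tested were higher and 2 lower at an adjusted p of 0.05. Of all 15044 genes tested there, 1307 were higher and 976 lower.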
